A study of Homo sapiens with 4 samples.

Results

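The 9 genes described here encode extracellular and cell-surface proteases of matrix breakdown, their inhibitors, and the plasminogen activation pair. They were the matrix metalloproteinases MMP1, MMP7, MMP14 and MMP15, the tissue inhibitors TIMP1, TIMP2 and TIMP3, the activator PLAU and its receptor PLAUR. Members were taken by gene name from a deposited table of 35211 genes, and all 9 were listed in it. RNA had been sequenced from PC3 and DU145, established human prostate cancer cell lines that came from a bone and a brain metastasis, after transfection with a circ0003553 overexpression plasmid or a negative control plasmid. The sample titles name the gene RCAN3 for all 4 samples. The 4 groups were PC3 with circ0003553, PC3 with control plasmid, DU145 with circ0003553 and DU145 with control plasmid, with 1 library each. The time after transfection and the number of separate cultures were not given in the sources used here.

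Matrix metalloproteinases are made as inactive precursors with a zinc in the active site. MMP1 is a secreted collagenase that cuts fibrillar collagen, MMP7 is a small secreted enzyme without a hemopexin domain, and MMP14 and MMP15 are anchored in the membrane. TIMPs bind the active site of the enzymes, and TIMP2 also takes part with MMP14 in the activation of the MMP2 precursor. PLAU, or urokinase, converts plasminogen to plasmin at the cell surface, where PLAUR holds it, and plasmin in turn can activate metalloproteinase precursors. These systems are widely studied in invasion of prostate cancer cells.

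Library totals were 33438509 to 39488890 counts. RCAN3 had 3798 counts with circ0003553 and 1212 with control plasmid in PC3, and 816 and 639 in DU145. Scaled to exon length and library size (deposited RPKM), these were 13.6 and 5.12 in PC3 and 3.16 and 2.37 in DU145. The difference between plasmids in RCAN3 was thus smaller in DU145. Circular and linear transcripts of a gene are not told apart in such counts. The epithelial genes KRT8, KRT18, EPCAM and CDH1 were detected in every library, at summed levels of 866 and 875 CPM (counts scaled to library size) in PC3 and 4484 and 3917 in DU145 (circ0003553 and control). CDH1 went against the sum in DU145, with 2478 and 4821 counts there, and had only 108 and 84 in PC3. STAT3, a gene known to be lost in PC3, had 6 and 2 counts in PC3 against 6160 and 7479 in DU145. Of 6 fibroblast genes none was at 0 in every library, and their summed level was 7.06 and 7.90 CPM in PC3 and 0.434 and 0.101 in DU145, where DCN, LUM and PDGFRA held 0 counts. The 4 endothelial genes came to 57.4 and 66.4 in PC3 and 0.921 and 0.455 in DU145, with VWF at 0 counts in PC3, and KDR at 1624 and 1564 counts in PC3 and 2 and 0 in DU145. The 4 leukocyte genes came to 1.06 and 1.36 CPM in PC3 and 0.434 and 0.783 in DU145, with PTPRC at 0 in 3 of the 4 libraries. In PC3, PDGFRA held most of the fibroblast sum (238 and 238 counts), while DCN had 2 and 2 and LUM 8 and 4. KDR and PECAM1 (595 and 585) held most of the endothelial sum there. The fibroblast and endothelial sums moved with the line, and their part in the line differences given for the members was not tested. No marker was called between plasmids. In such bulk RNA, fewer cells of a kind and less RNA per cell cannot be told apart.

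MMP1 lies on the minus strand of chromosome 11 from 102789920 to 102798160 (hg38), in a cluster of metalloproteinase genes. WTAPP1, a transcribed pseudogene on the plus strand, spans the whole of MMP1, from 102746968 to 102836766. Their exons meet in 2 places, over 51 bases (102795174 to 102795224) and 99 bases (102798024 to 102798122), together 150 bases or 7.6% of the MMP1 exons and 4.5% of the WTAPP1 exons. The shorter stretch is coding sequence of MMP1. It is shown because reads that touch it lie within both genes, and the strand setting of the counting is not known. It is written 5′ to 3′ on the MMP1 strand at chr11:102795174-102795224, from GENCODE release 29 transcripts, and equals the reverse complement of WTAPP1 there.
MMP1 and WTAPP1 shared stretch: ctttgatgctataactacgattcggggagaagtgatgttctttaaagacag

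For the start regions, the RefSeq table on GRCh38.p14 held 7 of the 9 members, and MMP1 and TIMP2 were not matched. AP-1, a dimer of JUN and FOS proteins, binds the word TGAGTCA, and the 250 bases before each listed start were searched for it on both strands. On the opposite strand it reads TGACTCA, and overlaps with no other word were considered. The word was in 2 of 8 member windows, those of MMP7 and PLAUR, and in 4.20% of 35116 windows of that length. A match is a description of the letters and not of binding.

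The stretches printed are those of MMP14, PLAU and PLAUR, whose counts were higher together in DU145 with circ0003553, and of MMP7 and TIMP3, which had next to no counts. Bases inside the gene's own exons were left off. The PLAUR window lay inside an exon of the deposited gene model, so only 10 bases each side of the word are shown. Capitals mark the AP-1 word. The regions were chr14:22836335-22836556 (plus) for MMP14, chr10:73910882-73911103 (plus) for PLAU, whose listed start lies inside the deposited gene, chr19:43670339-43670365 (minus) for PLAUR, chr11:102530754-102530997 (minus) for MMP7 and chr22:32801455-32801700 (plus) for TIMP3.
MMP14: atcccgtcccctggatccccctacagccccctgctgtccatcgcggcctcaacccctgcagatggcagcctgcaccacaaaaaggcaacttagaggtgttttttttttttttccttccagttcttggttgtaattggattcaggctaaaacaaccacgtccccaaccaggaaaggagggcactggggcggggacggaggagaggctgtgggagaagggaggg
PLAU: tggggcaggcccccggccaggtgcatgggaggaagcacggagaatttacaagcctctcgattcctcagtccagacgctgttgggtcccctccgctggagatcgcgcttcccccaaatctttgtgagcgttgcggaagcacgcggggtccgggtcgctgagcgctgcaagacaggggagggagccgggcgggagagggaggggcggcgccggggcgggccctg
PLAUR: cacaactccaTGAGTCAgggccgagcc
MMP7: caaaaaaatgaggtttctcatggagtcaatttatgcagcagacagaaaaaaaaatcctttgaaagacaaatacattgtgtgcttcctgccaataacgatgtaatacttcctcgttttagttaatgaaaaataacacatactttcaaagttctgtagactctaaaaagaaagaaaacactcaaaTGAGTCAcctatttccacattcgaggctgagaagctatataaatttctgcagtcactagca
TIMP3: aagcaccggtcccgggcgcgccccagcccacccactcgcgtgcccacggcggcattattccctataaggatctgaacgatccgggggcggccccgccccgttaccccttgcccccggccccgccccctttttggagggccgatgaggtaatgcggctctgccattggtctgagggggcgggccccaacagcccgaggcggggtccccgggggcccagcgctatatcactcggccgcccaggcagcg
The 2 nearly silent members differed widely in base composition here, with 33.6% G and C in the MMP7 stretch and 72.0% in that of TIMP3.

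Levels per length are given as the deposited RPKM (reads per kilobase of exon, scaled to library size), and ranged widely between members. PLAU was the most abundant in every library, at 278 and 345 RPKM in PC3 (circ0003553 and control) and 192 and 132 in DU145. PLAUR followed at 148 and 148 RPKM in PC3, and had 117 and 73.6 in DU145. MMP14 had 81.0 and 90.2 RPKM in PC3 and 122 and 75.4 in DU145. These 3 genes exceeded at least 97.7% of the genes with a count in each library. PLAUR stood above MMP14 in PC3, while in DU145 their levels were close and MMP14 was slightly higher.

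The inhibitors came next. TIMP2 had 10.9 and 10.9 RPKM in PC3 and 14.9 and 19.3 in DU145, and TIMP1 had 11.3 and 10.9 in PC3 and 10.6 and 9.52 in DU145. TIMP1 and TIMP2 were apart in DU145 and level in PC3. MMP1 had 0.874 and 0.729 RPKM in PC3, above 48.0% and 44.2% of the genes with a count, and 10.9 and 2.21 in DU145. In the DU145 circ0003553 library MMP1 thus stood at 1.03 times the level of TIMP1, against 0.233 times in the DU145 control library. MMP15 had 0.332 and 0.257 RPKM in PC3 and 3.09 and 3.18 in DU145.

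MMP7 had 2 and 0 counts in PC3 and 2 and 0 in DU145 (circ0003553 and control). TIMP3 had 2 and 0 in PC3 and 0 in both DU145 libraries. All were under a floor of 3 counts, which is 0.0760 to 0.0897 CPM in these libraries, so neither gene has a fold change and neither was detectable at this depth. The other 7 members passed the filter on low counts.

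**Figure D1:**
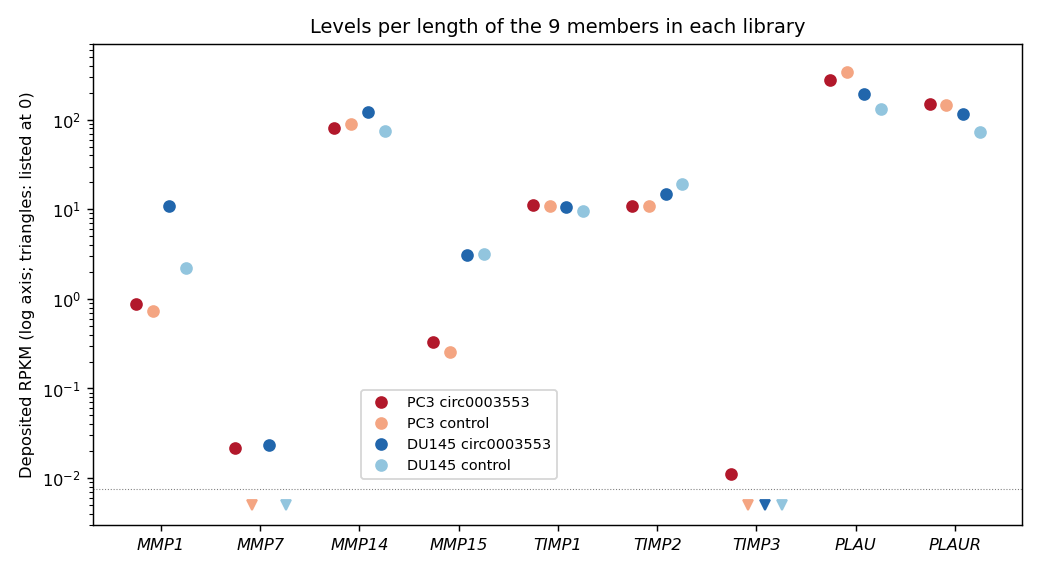
Deposited RPKM of each member (log axis) in the 4 libraries, 1 point per library, with triangles under the dotted line for values listed at 0. PLAU, PLAUR and MMP14 sit between 73.6 and 345 RPKM in all libraries, while MMP7 and TIMP3 are at or next to 0.

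The first comparison asked what differed with the circ0003553 plasmid. MMP1 rose. It had 784 counts with circ0003553 and 166 with control plasmid in DU145, a ratio of 5.07 after scaling by trimmed mean of M-values (TMM), with a 95% interval of 3.99 to 6.50. The PC3 libraries held 68 and 48 counts of MMP1, and the ratio of 1.19 (0.684 to 2.09) has an interval that holds 1. The intervals here are exact conditional binomial (Clopper-Pearson) and cover counting error only. They were computed on halved counts, since a read pair appears to have often been counted as 2. The high library was thus DU145 with circ0003553 alone, and the PC3 libraries could not be told apart at this depth.

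Across both lines, with the line as a block, the fitted log2 fold change of MMP1 was 1.79 ± 0.32 (SE; 2 libraries for each plasmid) with an adjusted p = 0.0174 (edgeR, quasi-likelihood F-test, p-values adjusted by Benjamini-Hochberg over 21731 genes). It was the only member called, 1 of the 7 tested, where 0.465% of all genes were called. The SE rests on 1 residual degree of freedom and a prior of 13.4 from other genes, and stands beside a log2 ratio of 2.33 for DU145 alone and 0.24 for PC3 alone. No adjusted p under 0.05 was given by DESeq2 (adjusted p = 0.99995), limma-voom (0.224), legacy dispersions (0.159), no filter on low counts (0.619) or a fit without the line (0.99992), with log2 fold changes from 1.33 to 2.01.

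WTAPP1 moved with MMP1 in all 4 libraries. It had 45 and 30 counts in PC3 and 529 and 112 in DU145 (circ0003553 and control), which was 0.662, 0.625, 0.675 and 0.675 of the MMP1 counts in the same order. Its ratio of circ0003553 to control was 5.07 in DU145 (interval 3.79 to 6.90) and 1.26 in PC3 (0.643 to 2.65). Of 14082 genes with a mean of at least 100 counts, WTAPP1 had the pattern most like MMP1, at a Euclidean distance of 0.0715 over the 4 centred log2 levels. The next were CORO2B (0.884), N4BP3 (0.957), CTC-436P18.3 (1.01) and RP5-1050D4.3 (1.01). WTAPP1 was thus far nearer than any other gene ranked. With MMP1 and WTAPP1 summed into 1 feature, the log2 fold change was 1.70 ± 0.31 and the adjusted p was 0.0202 by the same test. Since WTAPP1 kept nearly the same proportion to MMP1 in every library, this sum could hardly differ from MMP1 alone. How many reads the genes share, and from which strand they came, was not tested.

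**Figure D2:**
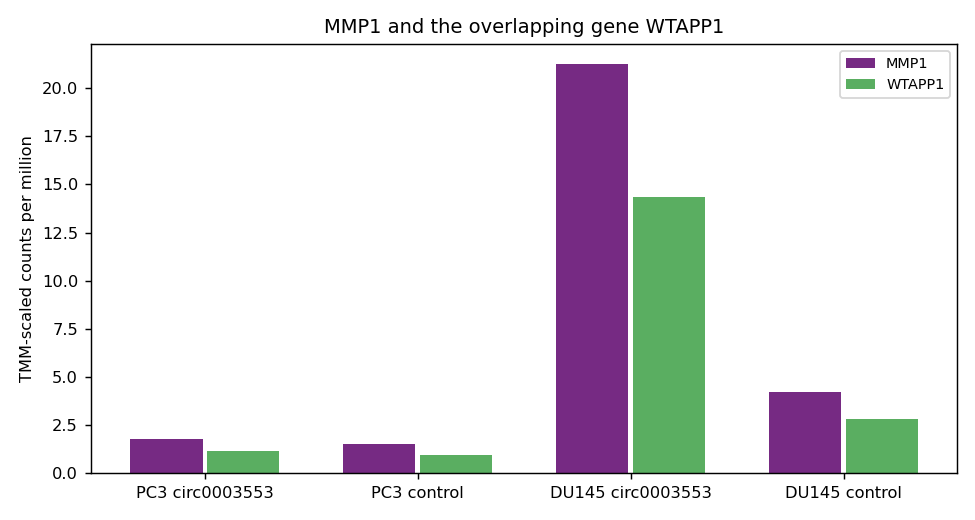
TMM-scaled CPM of MMP1 and WTAPP1 in each library, 1 bar per gene and library, without replicates. Both genes are high in DU145 with circ0003553, and WTAPP1 stands at 0.625 to 0.675 of the MMP1 counts throughout.

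The membrane protease MMP14 and the urokinase pair were higher with circ0003553 in DU145 but not in PC3. MMP14 had 19879 counts with circ0003553 and 12809 with control in DU145, a ratio of 1.67 (1.61 to 1.72), and 14273 and 13466 in PC3, a ratio of 0.889 (0.860 to 0.919). PLAU had 20673 and 14767 counts in DU145, a ratio of 1.50 (1.46 to 1.55), and 32382 and 33988 in PC3, a ratio of 0.799 (0.782 to 0.816). PLAUR had 18983 and 12479 counts in DU145, a ratio of 1.63 (1.58 to 1.69), and 26104 and 22025 in PC3, a ratio of 0.994 (0.969 to 1.02). MMP14 and PLAU therefore lay on opposite sides of 1 in the lines. PLAUR lay above 1 in DU145 and near 1 in PC3, where its sign turned under scaling by library totals.

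None of the 3 passed the test across lines. The fitted log2 fold changes were 0.28 ± 0.16 for MMP14, 0.13 ± 0.16 for PLAU and 0.34 ± 0.14 for PLAUR (adjusted p = 0.675, 0.896 and 0.474 in edgeR). Whether the lines differed in their response was not tested, since an interaction of line and plasmid leaves no residual degrees of freedom.

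Counted by size, MMP1 was the 1 member at least 2-fold apart in DU145, among 7 with at least 50 counts over both libraries, where 2.02% of genes were. No member was 2-fold apart in PC3, where 1.18% of genes were. At least 1.5-fold higher in DU145 were MMP1, MMP14, PLAUR and PLAU, 4 of 7, against 4.46% of 17650 genes. PLAU only just passed, and its log2 ratio was 0.55, under that size, when scaled by library totals. None of the 7 was 1.5-fold higher in PC3, against 3.58% of 17363 genes. The median log2 ratio of the 7 was 0.59 in DU145 and -0.01 in PC3, against 0.00 and 0.01 over all genes with at least 50 counts. These are single libraries, and the members were chosen with earlier results known, so the counts are a description.

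PLAU shares 916 exon bases, 31.1% of its exons, with C10orf55 on the other strand. C10orf55 had 0.246 to 0.260 of the PLAU counts in each library, and ratios of 1.53 in DU145 and 0.846 in PC3, close to those of PLAU. MMP14, MMP15, TIMP1 and PLAUR shared no exon base with another gene of the table.

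The inhibitors and MMP15 differed less between plasmids. TIMP2 had 3063 counts with circ0003553 and 4136 with control in DU145, a ratio of 0.795 (0.744 to 0.850), and 2428 and 2053 in PC3, a ratio of 0.992 (0.911 to 1.08). TIMP1 had 594 and 558 counts in DU145, a ratio of 1.14 (0.967 to 1.35), and 687 and 562 in PC3, a ratio of 1.02 (0.874 to 1.21). MMP15 had 498 and 534 counts in DU145, a ratio of 1.001 (0.839 to 1.19), and 58 and 38 in PC3, a ratio of 1.28 (0.694 to 2.42). TIMP2 in DU145 was the only one of these ratios whose interval left out 1.

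Across lines the fitted log2 fold changes were -0.18 ± 0.11 for TIMP2, 0.11 ± 0.13 for TIMP1 and 0.08 ± 0.19 for MMP15 (adjusted p = 0.695, 0.884 and 0.956 in edgeR). TIMP2 shares 198 exon bases with CEP295NL on its own strand and 367 with RP11-323N12.5 on the other. CEP295NL had a ratio of 0.754 in DU145 and 0.844 in PC3.

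The balance of MMP14 to TIMP2 can be read per length. MMP14 stood at 7.42 times the RPKM of TIMP2 in PC3 with circ0003553 and 8.28 times in PC3 with control, and at 8.19 times in DU145 with circ0003553 and 3.91 times in DU145 with control. DU145 with control plasmid was thus the 1 library of the 4 that stood apart in this ratio. PLAU stood at 1.87 and 2.33 times the RPKM of PLAUR in PC3 (circ0003553 and control) and at 1.65 and 1.79 times in DU145.

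**Figure D3:**
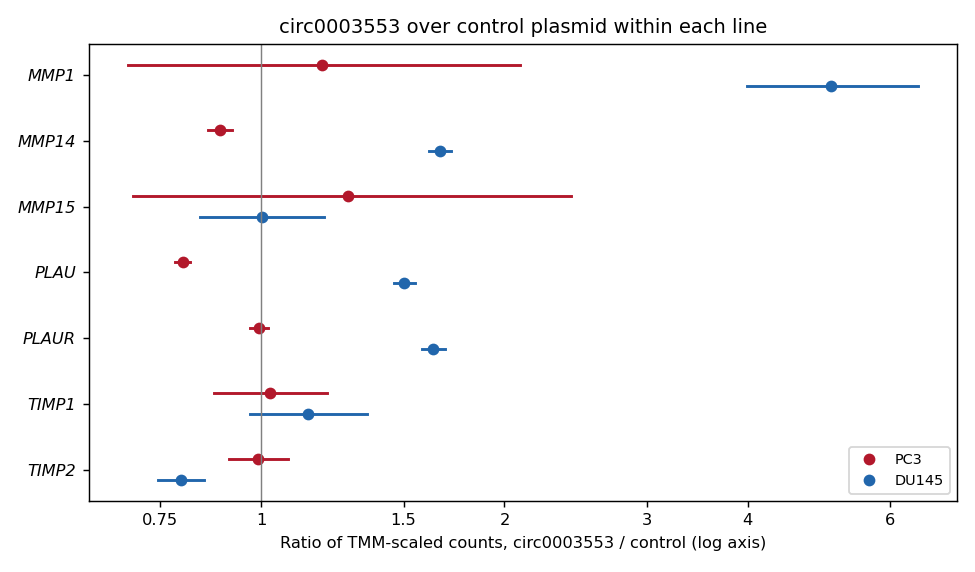
Ratio of TMM-scaled counts with circ0003553 to those with control plasmid (log axis) for the 7 members with counts, 1 point per line, with 95% counting intervals from halved counts. In DU145, MMP1 is at 5.07 and MMP14, PLAU and PLAUR at 1.50 to 1.67, while in PC3 the same 3 genes are at 0.799 to 0.994.

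The second comparison set PC3 against DU145. PLAU and PLAUR were higher in PC3, and MMP15, MMP1 and TIMP2 were lower. The fitted log2 fold changes of PC3 over DU145 were 1.03 ± 0.16 for PLAU and 0.75 ± 0.14 for PLAUR (edgeR adjusted p = 4.69e-05 and 0.000244, with 2 libraries for each line). They were -3.33 ± 0.20 for MMP15, -2.83 ± 0.33 for MMP1 and -0.57 ± 0.11 for TIMP2 (adjusted p = 1.84e-09, 2.32e-06 and 0.000259). TIMP1 (0.22 ± 0.13, adjusted p = 0.150) and MMP14 (-0.10 ± 0.16, adjusted p = 0.604) were not called. That is 5 of 7 members, where 65.9% of all genes were called between the lines, so a call here is common. DESeq2 did not call PLAU (adjusted p = 0.0797).

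Under each plasmid the lines can be set side by side with 1 library each, and the difference between plasmids in these ratios was not tested. PLAU in PC3 was at 1.50 times its DU145 level under circ0003553 (interval 1.46 to 1.53) and at 2.81 times under control plasmid (2.74 to 2.89). PLAUR was at 1.31 times under circ0003553 (1.28 to 1.35) and 2.16 times under control (2.09 to 2.22). For MMP14 the direction turned, with 0.685 times under circ0003553 (0.665 to 0.707) and 1.28 times under control (1.24 to 1.33). The urokinase genes and MMP14 were thus closer to PC3 levels, or past them, in the DU145 circ0003553 library.

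MMP1 in PC3 was at 0.0828 times its DU145 level under circ0003553 (0.0565 to 0.118) and 0.353 times under control (0.214 to 0.562). MMP15 was at 0.111 times under circ0003553 and 0.0869 times under control, with overlapping intervals. Overlap of such counting intervals is not a test of a difference between plasmids. TIMP2 was at 0.757 times under circ0003553 (0.701 to 0.816) and 0.606 times under control (0.562 to 0.654). TIMP1 was at 1.10 and 1.23 times, with overlapping intervals.

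**Figure D4:**
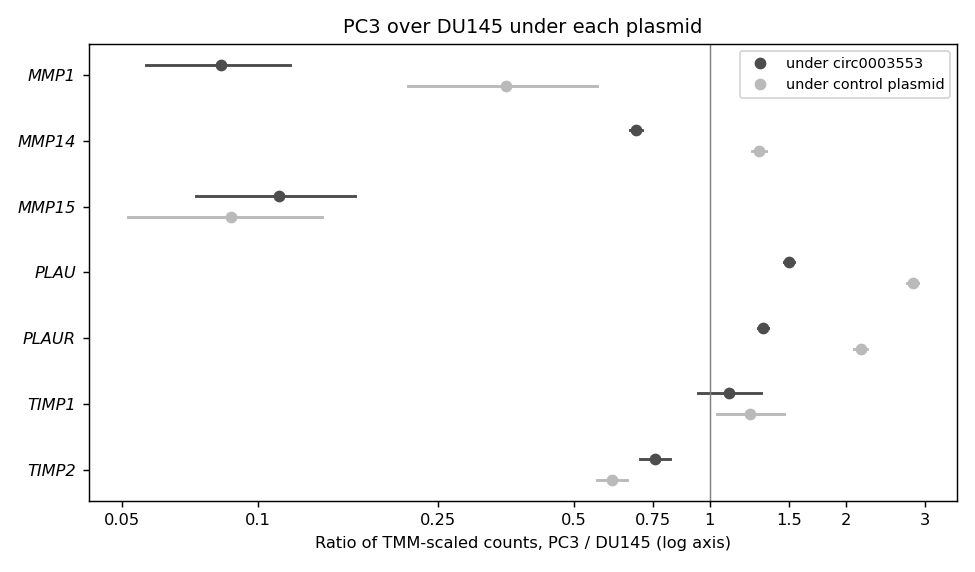
Ratio of TMM-scaled counts in PC3 to those in DU145 (log axis) for the same 7 members, under circ0003553 and under control plasmid, with 95% counting intervals from halved counts. MMP14 crosses 1 between plasmids, at 0.685 and 1.28, and PLAU and PLAUR are nearer to 1 under circ0003553.

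The rest of the pathway is given from lists of related genes. Of 19 other metalloproteinases 16 were listed, 8 of these had under 50 counts summed over all libraries, and 8 were tested. No gene among these 8 was called between plasmids by edgeR, DESeq2, limma-voom or legacy dispersions, with 0 at an unadjusted p under 0.05, and the median log2 fold change was -0.12 against 0.00 over all genes. MMP2, whose precursor MMP14 activates, had 0 and 0 counts in PC3 and 0 and 2 in DU145. MMP3 and MMP10, the nearest metalloproteinase genes on either side of MMP1, had at most 2 counts in any library. Between lines edgeR called 5 of the 8, against 65.9% of all genes. Of these 5, 2 were higher and 3 lower in PC3. DESeq2 called 2 of the 8 between lines, and 10085 of all 21731 genes. Those edgeR called include MMP16 (357 and 382 counts in PC3, 0 and 0 in DU145) and MMP24 (log2 fold change -3.24 ± 0.18, adjusted p = 6.90e-10 in edgeR).

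Of 15 other genes of plasminogen activation 10 were tested, and none was called between plasmids by any of the 4 methods. At an unadjusted p under 0.05 there were 2 of the 10, where 1929 of all 21731 genes were. The median log2 fold change of the 10 was 0.03. PLG, which encodes plasminogen itself, had 2 and 2 counts in PC3 and 0 in both DU145 libraries. Between lines 6 were higher and 3 lower in PC3 by edgeR, which called 65.9% of all genes. Among those higher in PC3 were SERPINB2, an inhibitor of PLAU, and the activator PLAT, at log2 fold changes of 8.20 ± 0.28 and 4.59 ± 0.15 (edgeR adjusted p = 3.58e-12 and 1.73e-12). PLAT had 2294 and 2075 counts in PC3 and 104 and 91 in DU145 (circ0003553 and control). The annexin partner S100A10, a plasminogen receptor subunit, was lower in PC3 (-0.97 ± 0.11, adjusted p = 2.24e-06).

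Of 12 other regulators of metalloproteinases 10 were tested, with a median log2 fold change of 0.18. By edgeR 1 was called, higher with circ0003553, against 0.465% of all genes. It was SPOCK1, a secreted proteoglycan gene (1.10 ± 0.15, adjusted p = 0.00274 in edgeR, not called by DESeq2), with 2793 and 1052 counts in PC3 and 20 and 14 in DU145. From this list limma-voom and legacy dispersions called 1 gene each. Between lines 1 was higher and 7 were lower in PC3 by edgeR, which called 65.9% of all genes. The largest differences were those of CLDN1 (-7.04 ± 0.28), SPOCK1 (6.83 ± 0.19), the proprotein convertase gene PCSK6 (-3.98 ± 0.26) and LCN2, whose product binds MMP9 (-3.27 ± 0.22), with adjusted p-values from 3.98e-13 to 7.64e-09 by the same test. A list of 8 membrane serine proteases and their inhibitors also held the secreted protease gene PRSS22. Of the 8, 4 were tested, and none was called between plasmids by any of the 4 methods (0 at an unadjusted p under 0.05, median log2 fold change 0.10). All 4 were called lower in PC3 by edgeR, against 65.9% of all genes called between the lines in either direction. These were PRSS22 (-5.43 ± 0.32), ST14 or matriptase, which can activate the PLAU precursor (-4.39 ± 0.28), and its inhibitors SPINT2 (-0.9997 ± 0.0967) and SPINT1 (-0.96 ± 0.11), with adjusted p-values from 1.33e-09 to 3.14e-06 by the same test.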

How the data were processed

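Per the labels' protocols, TRIzol total RNA was DNase-treated and depleted of ribosomal RNA, and stranded libraries with unique molecular identifiers of 8 bases were sequenced in pairs. The genome build was hg38 and the tools listed were edgeR 3.12.1, Subread 1.5.1, featureCounts and Trimmomatic 0.36, per the submitters' processing notes. For the aligner, the strand setting and the use of the identifiers, the answer was not given in the sources used here. Raw gene counts and RPKM values were deposited by the authors, and the RPKM equalled count per length and library total within a relative difference of 1e-09. Columns were matched to samples by name, with NC read as negative control and the other column of each line as the overexpression plasmid.

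The whole table was fitted with edgeR 4.0.16 (R 4.3.3; glmQLFit, TMM, filterByExpr by plasmid, additive line and plasmid) on 21731 genes, with Benjamini-Hochberg adjustment at 0.05. The SE is the log2 fold change divided by the root of F. Within a line, 1 library a group allowed no test, and log2 ratios used a prior count of 2 and at least 50 counts summed over both libraries. Pairing by line comes from the labels. P-values rest on 1 residual degree of freedom between these libraries and a prior of 13.4 from other genes. They do not measure a spread between replicates, since each group holds 1 library. Of counts from 1 to 20, 70.3% to 75.3% were even. The fit was also run on simulated counts with the same spread for every gene and the same plasmid effect in both lines. That run thus gives no check for genes on which the lines disagree, such as MMP1. DESeq2 1.42.0 and limma 3.58.1 were among the alternatives. Genes outside the members were named by rule: every listed gene called between plasmids, up to 4 per list between lines whose mean log2 CPM was 1 or more, overlapping genes, and the 5 nearest to MMP1. Other genes were named after their values were seen. The members and lists, which also held ADAM and ADAMTS proteases, AP-1 and ETS factors and matrix substrates, were chosen with earlier results of these data known. Some genes that the rule would name are not reported here.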

Additional observations from a re-analysis of the deposited data

Results flagged for a closer look

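MMP14 and PLAU moved in opposite directions with circ0003553 in the lines. The log2 ratio of circ0003553 over control was -0.17 in PC3 and 0.74 in DU145 for MMP14, and -0.32 in PC3 and 0.59 in DU145 for PLAU, with counting intervals that left out a ratio of 1 each time. The signs held under scaling by library totals and by relative log expression, with a prior count of 0.5 and with halved counts. Each rests on 1 library per group, and the difference between the lines was not tested.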

How the results depend on the processing

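Between plasmids, 101 genes and 1 member were called by edgeR. The totals were 63 with DESeq2, 26 with limma-voom, 53 with legacy dispersions, 9 without a low-count filter, 46 among genes sharing no exon base (which leaves out MMP1) and 0 without the line term (26 at an unadjusted p under 0.05). Members called were 0 in each of these 6, with 0 to 2 at an unadjusted p under 0.05. MMP1 kept its call with relative log expression, library totals and halved counts (adjusted p = 0.00661 to 0.0274 by edgeR). The sum of MMP1 and WTAPP1 was also called (adjusted p = 0.0202 by edgeR). It is not a separate check, because WTAPP1 stood at 0.625 to 0.675 of the MMP1 counts in every library. Without the line term the log2 fold change of PLAU reversed to -0.030. The cause was not tested. Between lines, genes sharing no exon base gave 7018 calls and 2 members, since fewer genes were tested. Genes 2-fold apart numbered 357 in DU145 and 205 in PC3. In DU145 there were 1626 at 1.5-fold, 106 with at least 200 counts and 174 with halved counts, and in PC3 1006, 51 and 80. Leaving out a library leaves the additive fit no residual degrees of freedom, and leaving out a line gives the within-line ratios. No paired analysis beyond the line block was possible because each group holds 1 library. The depth limits MMP1 and MMP15 in PC3, at 38 to 68 counts, and MMP7 and TIMP3.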

Other observations

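AP-1 and ETS factors are known to act on metalloproteinase and urokinase promoters. Their list of 15 also held RUNX2, which is of neither family. Of these 15, ATF3 was the 1 called between plasmids by edgeR, against 0.465% of all genes. It had 570 and 174 counts in PC3 and 503 and 170 in DU145 (circ0003553 and control), and a log2 fold change of 1.56 ± 0.16 (edgeR adjusted p = 0.000121). DESeq2, limma-voom and legacy dispersions called it too. At an unadjusted p under 0.05 there were 8 of 15, where 1929 of all 21731 genes were, and the median log2 fold change was 0.30, against 0.00 over all genes. By size, JUN, ATF3 and ETV4 were 2-fold higher in DU145 and ELF3 was 2-fold lower, 4 of 14 with at least 50 counts, where 2.02% of genes were 2-fold apart. In PC3 ATF3 was the 1 of 14, where 1.18% of genes were. JUN had 5770 and 2456 counts in DU145, a ratio of 2.52 (interval 2.36 to 2.70), and 6656 and 5716 in PC3, a ratio of 0.976 (0.928 to 1.03). ETV4 had ratios of 2.15 in DU145 and 1.02 in PC3, and ELF3 0.491 and 1.38. These genes were named after their values were seen. Between lines 8 were higher and 5 lower in PC3 by edgeR, which called 65.9% of all genes. DESeq2 called 8 of the 15 between lines, and 10085 of all 21731 genes. Among genes with a mean log2 CPM of 1 or more, the largest differences were those of RUNX2 (3.71 ± 0.20), ETV4 (2.35 ± 0.19), ELF3 (-1.36 ± 0.24) and FOSL1 (1.26 ± 0.11). Below that level FOSB (2.25 ± 0.38) and FOS (-1.89 ± 0.45) were also called.

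Of 15 matrix substrates 13 were tested and none was called between plasmids by the 4 methods. At an unadjusted p under 0.05 there were 2 of the 13, against 1929 of all 21731 genes. The median log2 fold change of the 13 was 0.07. Between lines 9 were higher and 2 lower in PC3 in edgeR, which called 65.9% of all genes. The largest were COL5A1 (7.47 ± 0.23), FN1 (4.66 ± 0.11), COL6A1 (3.36 ± 0.11) and COL4A1 (3.27 ± 0.10). COL3A1, a fibrillar collagen that MMP1 cuts, had 16 and 6 counts in PC3 and 4 and 0 in DU145 (circ0003553 and control). Of 17 ADAM and ADAMTS proteases 13 were tested and none was called between plasmids by the 4 methods. Here too 2 of the 13 were at an unadjusted p under 0.05, against 1929 of all 21731 genes. The median log2 fold change of these proteases was 0.11. Between lines 6 were higher and 4 lower in PC3, against the same 65.9% of all genes called. The largest differences among genes with a mean log2 CPM of 1 or more were those of ADAMTS1 (1977 and 1185 counts in PC3, 2 and 0 in DU145), ADAM9 (-1.88 ± 0.10), ADAM10 (-1.75 ± 0.12) and ADAM19 (1.51 ± 0.11). Below that level ADAMTS12 (4.41 ± 0.87) and ADAMTS10 (-1.59 ± 0.44) were also called.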
